A study of Mus musculus with 6 samples.

Results

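The genes whose RNA was bound by YTHDC1 in C2C12 myoblasts were described here from 29087 LACE-seq peaks, each found in both C2C12 libraries of the series. YTHDC1 is a nuclear protein whose YTH domain binds N6-methyladenosine (m6A), a methyl mark on adenosine that a complex of METTL3 and METTL14 places in RNA. It is known to act in splicing and in the export of mRNA from the nucleus, and it binds long noncoding RNAs of the nucleus such as Xist. Myoblasts are the dividing precursor cells of muscle fibres, and C2C12 is a mouse line of such cells.

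A shared peak was a peak of replicate 1 with 1 nt or more in common with a same-strand peak of replicate 2. LACE-seq recovers the RNA that was crosslinked to a protein by UV light and reads where reverse transcription stopped, so a peak marks a short stretch next to a crosslinked site. The series holds 6 libraries and 178779 peaks, of which 4 libraries are of ASC-48h, activated muscle stem cells in culture, and 2 are of C2C12. All 6 are labelled WT and were made with the same YTHDC1 antibody, and no library of another genotype, antibody or treatment was analysed here. The C2C12 cells were kept in growth medium with serum, and both libraries come from this 1 line. The labels mark them as biological replicates while the study's text calls them technical, so their agreement may be that of 1 culture.

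Replicate 1 held 60540 peaks with 523067 reads in them and replicate 2 held 71992 peaks with 607366 reads. The shared peaks made up 48.05% of the peaks of replicate 1 and 40.4% of those of replicate 2. Most of them were a single bin of 20 nt (88.31%), and the median was 8 reads per bin in each library, close to the lowest number listed, 6. Reads could be placed at several positions, and 60.7% of the shared peaks had a 20-nt sequence that occurs once in the genome, here called single-copy. Only exact matches were counted, and a peak of several bins was single-copy if 1 of its bins was. The authors allowed mismatches when placing reads, so reads of a single-copy peak may still come from a similar sequence. Intervals given for shares are exact Clopper-Pearson intervals at the 95% level and cover counting error across peaks or genes only.

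Most of the peaks lay in exons of genes read in the same direction. On the strand of the RNA, 21724 shared peaks were in an annotated gene, or 74.69% (74.18% to 75.19%). Exons held 53.81% of all shared peaks and introns 20.87%. A gene on the opposite strand alone was overlapped by 5.05%, and 20.26% were in no gene on either strand. With the strand ignored, 79.74% were in a gene, and among single-copy peaks alone the share on the strand of the RNA was 91.29%.

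Stretches around high single-copy peaks of genes with many shared peaks show the kind of RNA that was recovered. For each gene the single-bin peak with the highest mean reads was taken whose whole window lay in 1 coding exon, in 1 noncoding exon or outside exons, so the highest peak of a gene could be passed over, as it was in Fn1 (16 and 14 reads) and Hspg2 (26 and 20 reads). Each is 60 nt of mm9 (NCBIM37), the 20-nt peak with 20 nt on each side, written from 5′ to 3′ as the RNA with T for U. Capitals mark a motif core, which is GGAC or its variants GAAC and AGAC, with AAAC also counted, the letters in which m6A is usually placed. The first set comes from coding exons of large cytoskeletal and matrix genes, namely Ahnak (chr19:9078461-9078520, plus strand, 46 and 24 reads per bin in replicates 1 and 2), Plec (chr15:76008381-76008440, minus strand, 17 and 12 reads), Fn1 (chr1:71637341-71637400, minus strand, 12 and 16 reads), Lrp1 (chr10:126981501-126981560, minus strand, 13 and 15 reads) and Hspg2 (chr4:137068061-137068120, plus strand, 20 and 22 reads).
Ahnak: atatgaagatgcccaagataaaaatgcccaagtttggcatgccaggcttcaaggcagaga
Plec: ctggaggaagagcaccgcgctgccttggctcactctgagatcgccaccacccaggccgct
Fn1: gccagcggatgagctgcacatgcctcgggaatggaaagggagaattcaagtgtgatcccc
Lrp1: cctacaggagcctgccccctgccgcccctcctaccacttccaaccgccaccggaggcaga
Hspg2: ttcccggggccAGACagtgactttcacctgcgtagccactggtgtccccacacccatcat

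The next set lies in introns of Ext1 (chr15:53142981-53143040, minus strand, 14 and 15 reads) and Runx1 (chr16:92761901-92761960, minus strand, 11 and 15 reads), genes whose shared peaks were mostly intronic. Neither window held a motif core.
Ext1: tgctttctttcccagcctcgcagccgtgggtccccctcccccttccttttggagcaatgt
Runx1: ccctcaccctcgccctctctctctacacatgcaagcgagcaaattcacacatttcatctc

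The last set lies in exons of the long noncoding RNAs Neat1 (chr19:5836041-5836100, minus strand, 15 and 19 reads), Xist (chrX:100661861-100661920, minus strand, 18 reads in each) and Malat1 (chr19:5799721-5799780, minus strand, 18 and 20 reads). Each held at least 1 core, and the window of Neat1 held 3.
Neat1: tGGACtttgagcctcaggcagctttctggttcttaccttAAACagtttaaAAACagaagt
Xist: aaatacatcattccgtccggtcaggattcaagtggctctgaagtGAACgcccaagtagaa
Malat1: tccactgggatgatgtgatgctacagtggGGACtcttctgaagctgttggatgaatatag

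Over all windows of this kind in protein-coding genes, GGAC was found a little more often than in the same genes at large. The other cores were found less often, and noncoding genes were not part of this count. Of 9684 single-copy exonic windows, 22.0% held GGAC (21.2% to 22.9%), against 20.2% of 260175 windows of 60 nt tiled over the exons of the same genes. GAAC was in 15.8% against 18.2%, AGAC in 18.2% against 21.5%, and AAAC in 12% against 19.7%. At least 1 core was in 53.7% of the exonic windows against 59.9% of the tiled ones. Of 3653 intronic windows, 14.9% held GGAC against 13.8% of the tiled intron, and 47.2% held any core against 54.8%. The letters were searched on the strand of the RNA alone, and no core can overlap another. Base composition moved with these shares: C made up 30.8% of the exonic windows against 24.5% of the tiled ones and A 20.4% against 25.1%, and its part in the motif shares was not tested.

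Protein-coding genes took most of the binding. Of 37310 annotated genes, 6163 had a shared peak and are called bound here, and 4765 of them were protein-coding, which is 21.3% of the 22380 protein-coding genes (20.8% to 21.8%). They held 86.8% of the shared peaks in genes. No control library and no RNA level were analysed here, so peaks were not scaled to the amount of each RNA, and an unbound RNA and one too scarce to give a peak cannot be told apart.

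Of the other classes, 327 of 1423 snRNA genes were bound (23.0%), 234 of 1552 snoRNA genes (15.1%), 44 of 332 rRNA genes, 496 of 5201 pseudogenes (9.54%), 85 of 1273 lincRNA genes (6.68%), 84 of 2572 genes of processed transcripts, 55 of 487 misc_RNA genes and 54 of 1577 miRNA genes. In the mitochondrial genome, 17 of 22 tRNA genes, both rRNA genes and all 13 protein-coding genes had a shared peak. None of the 355 immunoglobulin V genes did. These classes differ in how far a read can be placed: 79.1% of the peaks in protein-coding genes were single-copy, against 73.6% in snoRNA genes, 26.4% in snRNA genes, 14.0% in pseudogenes and 6.82% in rRNA genes, so counts of bound snRNA genes and pseudogenes include peaks whose reads could come from another copy.

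The binding was concentrated in few coding genes. The median bound protein-coding gene had 2 shared peaks, and 2124 genes (44.58%) had 1. The 452 genes with 10 or more shared peaks were 2.02% of all protein-coding genes and held 46.37% of the shared peaks in them. The 18 genes with 50 or more held 7.71%.

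**Figure D1:**
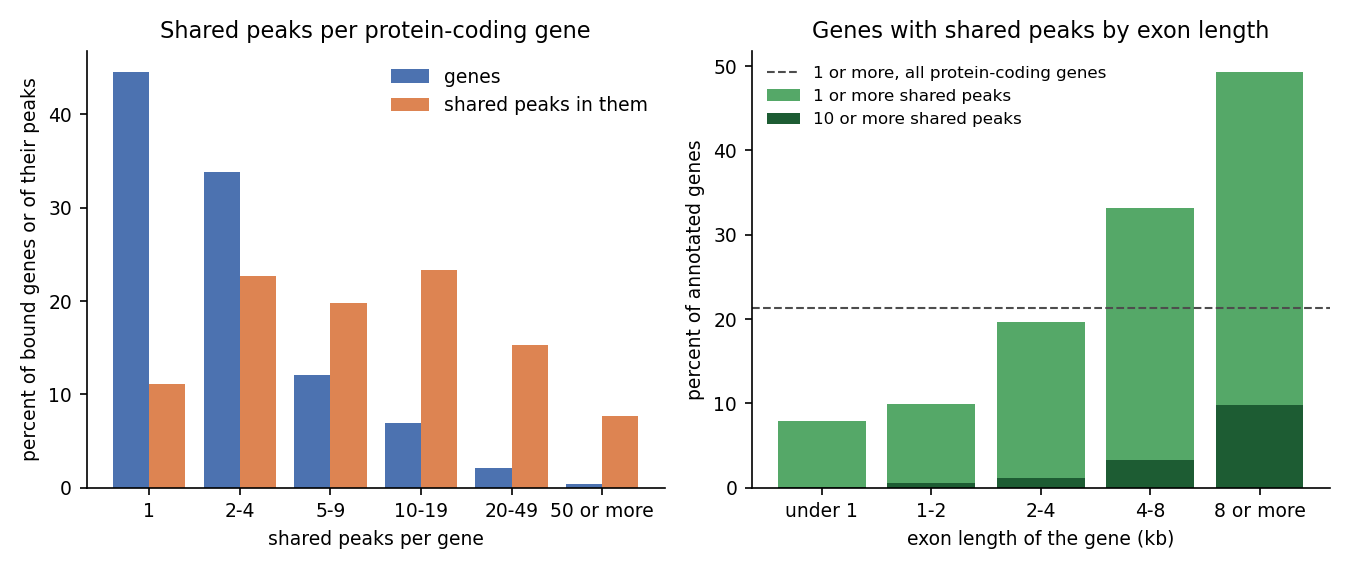
Left, the percent of the 4765 bound protein-coding genes (blue) and of their shared peaks (orange) by number of shared peaks per gene. Right, the percent of annotated protein-coding genes with 1 or more (light) and 10 or more (dark) shared peaks by exon length in kb, with the 21.3% of all protein-coding genes as a dashed line; the share goes from 7.94% below 1 kb to 49.4% at 8 kb or more.

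Bound genes were long. The median exon length was 4348 nt for bound protein-coding genes and 6182 nt for those with 10 or more shared peaks, against 2736 nt for all. Of genes with under 1 kb of exon 7.94% were bound, and of those with 8 kb or more 49.4%. Per kb of exon the order was different: over all genes of a class together there were 0.245 exonic shared peaks per kb below 1 kb, 0.142 between 1 and 2 kb, and 0.218 at 8 kb or more. Replication-dependent histone genes, with a median exon length of 530 nt, held 184 exonic shared peaks, of which 18 were single-copy. Their part in the value below 1 kb was not tested. Over the bound protein-coding genes together, exons held 0.543 exonic shared peaks per kb of exon and introns 0.0175 intronic shared peaks per kb of intron. Exons alone carried the shared peaks of 2574 genes, introns alone those of 1152, and 1039 genes had both. Gene lists below were set beside all coding genes without matching for exon length. They were chosen with earlier results of these data known, so their shares may reflect that choice.

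Large cytoskeletal, matrix and receptor genes led the coding genes by number of exonic shared peaks. Ahnak, which encodes a giant scaffold protein of the cell periphery, had 212 peaks in replicate 1, 230 in replicate 2 and 170 shared, 163 of them exonic; 102 were single-copy. Plec, which encodes plectin, a linker between intermediate filaments and other parts of the cytoskeleton, had 155 and 163 peaks and 107 shared. Fn1, the gene of fibronectin of the extracellular matrix, had 124 and 127 peaks and 94 shared, which was 10.6 exonic shared peaks per kb of exon. In each of these genes the numbers of the libraries lay close together.

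Lrp1, an endocytic receptor, had 142 and 138 peaks and 88 shared, all in exons. Hspg2, which encodes the basement membrane protein perlecan, had 130 and 123 peaks and 83 shared. Dst, which encodes the linker dystonin, had 137 and 134 peaks and 73 shared, and Myh9, a heavy chain of nonmuscle myosin, had 124 and 128 peaks and 67 shared. Ahnak2, a relative of Ahnak built of repeats, had 103 and 110 peaks and 55 shared, but only 3 of those 55 were single-copy, so its number rests on sequence found more than once in the genome.

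**Figure D2:**
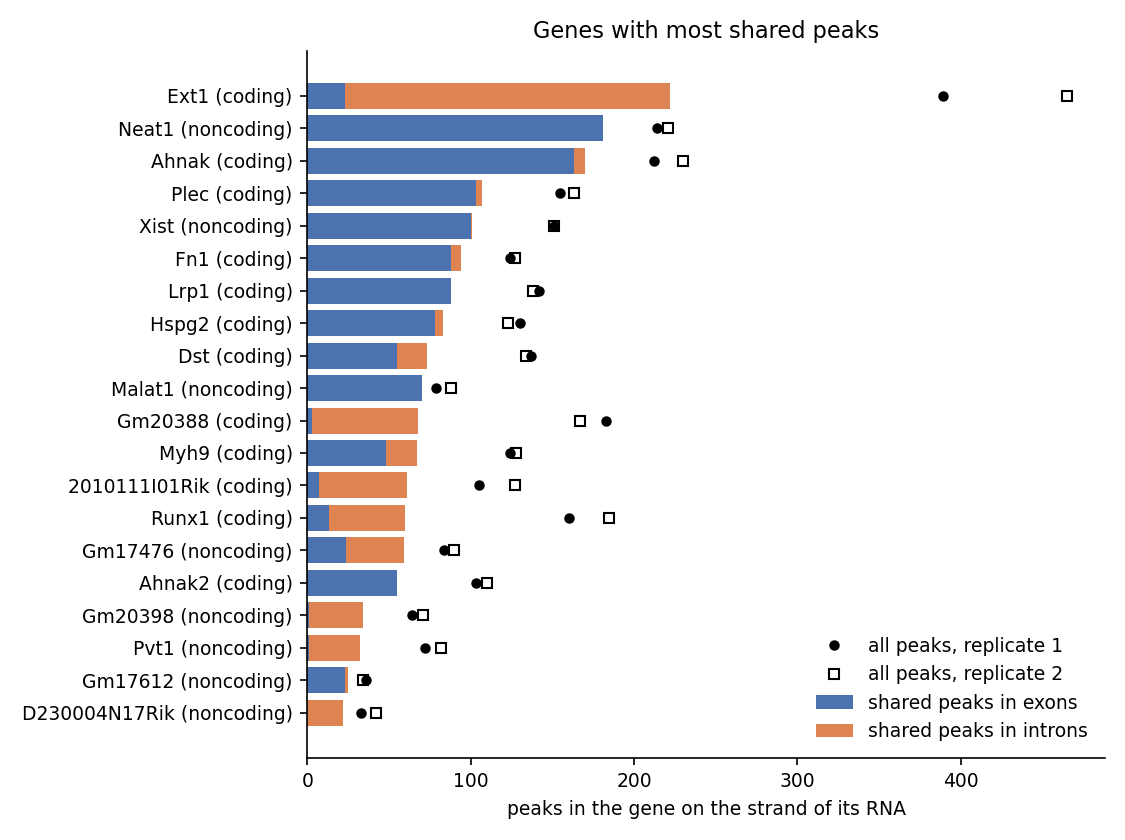
Shared peaks in exons (blue bars) and introns (orange bars) of the 12 protein-coding and 8 long noncoding genes with most shared peaks, with all peaks of the gene in replicate 1 (filled circles) and replicate 2 (open squares). The horizontal axis counts peaks. Ext1 is mostly orange, with 199 of 222 shared peaks in introns, while Neat1, Ahnak and Plec are mostly blue.

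Ext1 had more shared peaks than any other gene of the annotation, and they were intronic. Ext1 encodes a glycosyltransferase that builds heparan sulfate chains. It had 389 peaks in replicate 1, 465 in replicate 2 and 222 shared, of which 199 were in introns and 203 single-copy. No shared peak lay on the other strand of the gene. The peaks were low: the highest had 14 and 15 reads per bin, and 14 of the 222 had 10 or more reads per bin in both libraries. They lay towards the start of the gene, at a median of 56.0 kb from its 5′ end in a gene of 282 kb, with 69 in the first of 10 equal parts and 4 in the last.

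Other genes also had mostly intronic shared peaks. Runx1, a transcription factor best known in blood formation, had 160 and 185 peaks and 60 shared, 47 in introns. Ski, a repressor of TGF-beta signalling, had 106 and 133 peaks and 54 shared, 47 in introns. Most shared peaks were intronic in both genes, and neither had one on the other strand.

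Hmga2, a chromatin protein of embryonic and dividing cells, had 108 and 127 peaks and 48 shared, 42 in introns, and the kinase gene Map4k4 had 103 and 125 peaks and 49 shared, 43 in introns. The 61 shared peaks of 2010111I01Rik, with 105 and 127 peaks in the libraries, all lay in the last 3 of 10 equal parts of the gene, where the annotation places Mir23b and Mir27b on the same strand, and 22 lay within 10 kb of Mir23b. Gm20388 is annotated over 4435 kb and spans many other genes, and its 68 shared peaks were set beside 82 on the other strand, so they say little of 1 RNA.

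**Figure D3:**
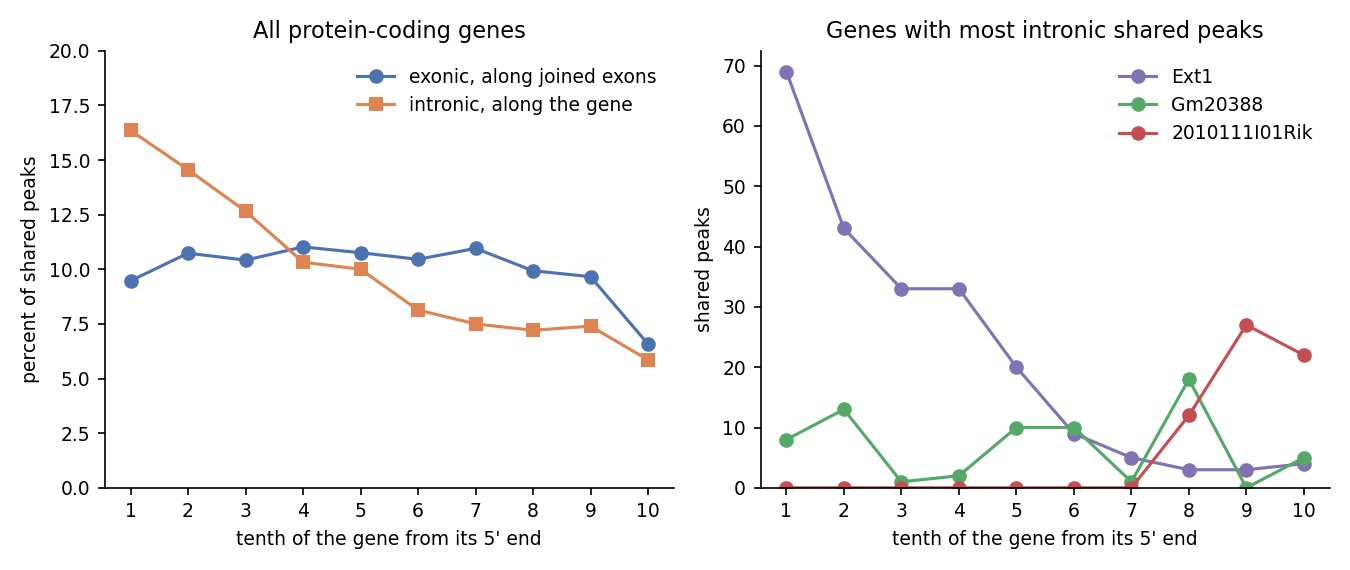
Left, the percent of exonic shared peaks in 10 equal parts of the joined exons (blue) and of intronic shared peaks in 10 equal parts of the gene (orange) over protein-coding genes, from 5′ to 3′. Right, the number of shared peaks in each of these parts for the 3 genes with most intronic shared peaks; Ext1 goes from 69 in the first part to 4 in the last, while 2010111I01Rik has all of its peaks in the last 3.

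Along protein-coding genes, exonic shared peaks were spread nearly evenly and more of the intronic ones lay near the start. Of 10 equal parts of the joined exons, all but the last held 9.47% to 11.02% of the exonic peaks each and the last 6.58%. Of the intronic peaks, 16.4% were in the first of 10 parts of the gene and 5.86% in the last, or 16.0% and 6.06% without Ext1. The length of intron in each part was not counted, so these are shares of peaks and not densities. Coding sequence was overlapped by 62.9% of the exonic peaks (62.1% to 63.7%). The coding share of the exons of these genes was not counted, so a preference for coding sequence cannot be read from this.

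Exonic shared peaks per kb of exon were highest in short transcripts of the mitochondrial genome and in histone genes. They were not scaled to the amount of each RNA. Among coding genes with at least 5 exonic shared peaks, mt-Co3 had 15.3 exonic shared peaks per kb of exon (12 and 13 peaks, 12 shared) and mt-Co2 14.6 (11 and 9 peaks, 10 shared); both encode subunits of cytochrome c oxidase, as does mt-Co1 with 12.3. The ATP synthase gene mt-Atp6 had 13.2 and the cytochrome b gene mt-Cytb 13.1. Hist1h3h, a gene of histone H3, had 14.3 with 7 and 8 peaks, and Hist1h2bj, a gene of histone H2B, had 13.0 with 6 peaks in each library. None of the 12 shared peaks of mt-Co3, the 10 of mt-Co2, the 9 of mt-Atp6 or the 6 of Hist1h2bj were single-copy. In Hist1h3h 1 of 7 was single-copy, in mt-Cytb 9 of 15 were, and in mt-Co1 8 of 19. Gm10076, which had 13.3, held 2 single-copy peaks of 5. In all, 1004 coding genes had at least 1 exonic shared peak per kb, 137 had at least 5 and 22 had at least 10.

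Nuclear noncoding RNAs carried as many peaks as the largest coding genes. Neat1, the scaffold RNA of paraspeckles, had 214 and 221 peaks and 181 shared, which was 8.71 exonic shared peaks per kb of exon. Xist, which coats the inactive X chromosome, had 151 peaks in each library and 101 shared, or 5.76 per kb. Malat1, an RNA of nuclear speckles, had 79 and 88 peaks and 70 shared, or 10.0 per kb. The numbers of the libraries were equal for Xist and close for the other 2 genes.

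Of the 12 nuclear long noncoding RNAs listed, 6 were bound (50%, 21.1% to 78.9%), against 6.68% of all lincRNA genes and 3.27% of all genes of processed transcripts, and the list includes Airn, with 29 and 39 peaks and 15 shared, and H19, with 16 and 12 peaks and 11 shared. Meg3, Rian and Mirg had no peak in either library (these 5 genes were named after their values were seen). Other long noncoding genes with many shared peaks were Pvt1, with 72 and 82 peaks and 32 shared, 31 of them intronic, Gm20398, with 64 and 71 peaks and 34 shared, a transcript that runs through Hoxc10 and other Hoxc genes, and D230004N17Rik with 33 and 42 peaks and 22 shared. Gm17476 (59 shared) and Gm17612 (25 shared) held no single-copy peak. Of 8 snoRNA host genes, 5 were bound (62.5%, 24.5% to 91.5%), among them Gas5 with 8 and 9 peaks and 8 shared, Snhg1 with 8 and 9 peaks and 7 shared, and Snhg12 with 7 and 6 peaks and 5 shared, 2 of them single-copy.

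Among small RNA genes, the highest signals per bin were in spliceosomal snRNA genes. A U4 gene on chromosome 5 reached 62 reads per bin in replicate 1 and 61 in replicate 2, a U2 gene on chromosome 1 reached 58 in each, and a U1 gene on chromosome 11 reached 54 in each. In each of these genes that bin lay across the annotated 5′ end. There, a stop at a crosslinked site cannot be told apart from the end of the RNA. By number of peaks, the 7SK gene copies had up to 5 shared peaks, and the gene of RNase_MRP had 4, all single-copy. Both shared peaks of this U4 gene were single-copy, against 1 of 3 in the U2 gene and none of 3 in the U1 gene. The values of the U2 and U1 genes cannot be told apart from those of other copies. The highest U4 bin took in sequence before the gene, so being single-copy does not show that its reads came from this gene. Another U4 gene on chromosome 5 reached 60 reads per bin in replicate 1 and 61 in replicate 2. Whether the same reads were placed at both U4 genes was not tested.

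RNA-binding protein genes were often among the bound. Of 23 hnRNP genes, which encode proteins that coat nascent RNA, 19 were bound, against 21.3% of all protein-coding genes. Their median exon length was 4125 nt, and 33.2% of all coding genes with 4 to 8 kb of exon were bound. Hnrnpl had 35 and 38 peaks and 26 shared, Ptbp1 18 and 13 peaks and 8 shared, and Hnrnpa0 10 in each and 6 shared. Of 13 SR genes, which encode splicing factors, 8 were bound (61.5%, 31.6% to 86.1%), and Srsf5 had most, with 12 and 11 peaks and 9 shared, 3 of them single-copy. Srsf2 had 7 peaks in replicate 1 and 16 in replicate 2, with 6 shared, and Srsf3 had 7 and 11 with 4 shared. Of 38 core spliceosome genes 16 were bound (42.1%, 26.3% to 59.2%), and U2af2, which encodes the large subunit of the factor that binds the polypyrimidine tract, had 23 and 21 peaks and 12 shared, all in introns. Prpf8 and Sf1 had 9 shared peaks each.

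Of 12 genes of m6A readers 9 were bound (75.0%, 42.8% to 94.5%), against 21.3% of all coding genes, led by Ythdf3 with 18 and 21 peaks and 8 shared, Ythdf2 with 9 and 7 peaks and 4 shared, 1 of them single-copy, and Hnrnpa2b1 with 7 and 6 peaks and 3 shared. Ythdc1 itself, named after its values were seen, had 8 and 6 peaks and 3 shared. The median exon length of the reader genes was 4952 nt, and 33.2% of all coding genes with 4 to 8 kb of exon were bound. Of 11 writer and eraser genes 5 were bound (45.5%), with an interval of 16.7% to 76.6% that takes in the share of all coding genes. The demethylase gene Fto had 52 and 56 peaks and 18 shared, 16 of them in introns, Rbm15 had 20 and 17 peaks and 8 shared, and Alkbh5 had 8 and 9 peaks and 4 shared. Mettl3 and Mettl14, named after their values were seen, had no peak in either library.

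Of 18 mRNA export genes 6 were bound (33.3%), and the interval of 13.3% to 59.0% takes in the 21.3% of all coding genes. Zc3h11a had 53 and 64 peaks and 40 shared, 34 of them in introns, the helicase gene Ddx39b had 17 and 23 peaks and 11 shared, and Thoc2, of the THO complex, had 5 and 8 peaks and 3 shared. Of 29 nuclear pore genes 12 were bound (41.4%, 23.5% to 61.1%), with 11 shared peaks in Ranbp2, 8 in Nup62 and 7 in Nup93, of which 1 was single-copy.

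Matrix and cytoskeleton lists held the genes with most peaks, and 44.2% to 82.6% of their members were bound, against 21.3% of all coding genes. These lists, like the others, were chosen with earlier results of these data known, which may raise their shares. Their median exon length went from 2658 nt for nonmuscle actin, myosin and tropomyosin to 15658 nt for giant linkers, against 2736 nt for all, and its part in these shares was not tested. Of 30 matrix glycoprotein genes 22 were bound and 8 had 10 or more shared peaks, against 2.02% of all coding genes; Thbs1, which encodes thrombospondin, had 45 and 57 peaks and 35 shared. Of 43 collagen genes 19 were bound, and Col6a3 (87 peaks in each library, 47 shared), Col3a1 (47 and 48, 33 shared) and Col5a1 (59 and 63, 32 shared) led them. Of 21 giant cytoskeletal linker genes 16 were bound and 12 had 10 or more, with a median of 13 shared peaks over the list. Of 23 genes of nonmuscle actin, myosin and tropomyosin 19 were bound; Vim, the intermediate filament gene of vimentin kept on this list, had 29 and 24 peaks and 23 shared, and Actb had 23 and 27 peaks and 21 shared.

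Of 23 cell junction genes 12 were bound (52.2%, 30.6% to 73.2%), against 21.3% of all coding genes, led by Ctnnd1 with 36 and 49 peaks and 22 shared, Ctnnb1 with 26 and 29 peaks and 16 shared, and Vcl with 29 and 31 peaks and 16 shared. Of 55 Wnt pathway genes 23 were bound (41.8%, 28.7% to 55.9%), among them the coactivator gene Bcl9l with 30 and 32 peaks and 20 shared and the receptor gene Fzd2 with 16 and 19 peaks and 12 shared. The median exon length was 5360 nt for cell junction genes and 4194 nt for Wnt pathway genes. At 4 to 8 kb of exon, 33.2% of all coding genes were bound. Of 32 integrin genes 9 were bound (28.1%, 13.7% to 46.7%), a share near that of all coding genes, and with all peaks of replicate 1 alone it lay below it (28.1% against 32.7%). Itga7, the integrin alpha chain of muscle cells, had 28 and 20 peaks and 11 shared, Itgb1 7 shared and Itga5 6.

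**Figure D4:**
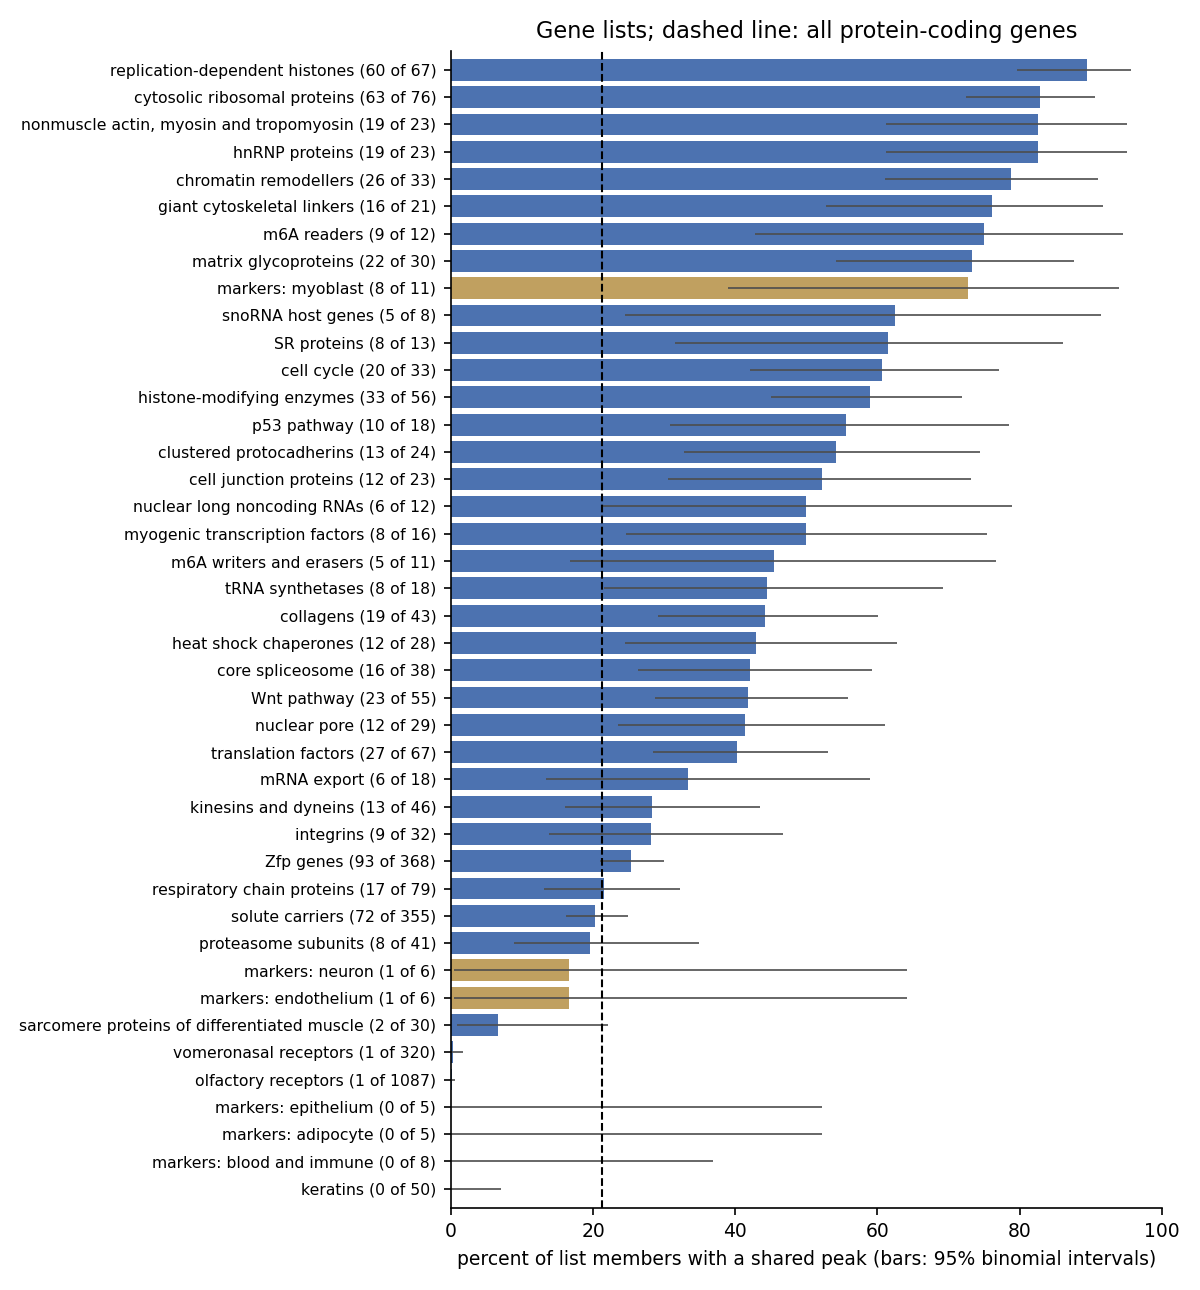
Percent of the members of each gene list with a C2C12 shared peak (bars, with exact 95% binomial intervals as lines), the number bound of the number listed in brackets, and the 21.3% of all protein-coding genes as a dashed line. Marker lists of cell types are in yellow. Histone and ribosomal protein genes stand at the top and olfactory receptors and keratins at the bottom.

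Of 33 chromatin remodeller genes 26 were bound (78.8%, 61.1% to 91.0%), against 21.3% of all coding genes, with 23 shared peaks in Arid1b (55 peaks in each library, 11 of the shared ones single-copy), 17 in Arid1a (44 and 40) and 15 in Chd4 (27 and 26). Of 56 genes of histone-modifying enzymes 33 were bound (58.9%, 45.0% to 71.9%), with 36 shared peaks in Mll2, a methyltransferase of histone H3 now named Kmt2d (76 and 88 peaks), 17 in Nsd1 (30 and 39) and 16 in Mll1, now Kmt2a (30 and 44). These genes were long, with a median exon length of 8402 nt for remodellers and 6874.5 nt for enzymes, and of all coding genes 33.2% were bound at 4 to 8 kb of exon and 49.4% at 8 kb or more. Of 33 cell cycle genes 20 were bound (60.6%, 42.1% to 77.1%), led by the proliferation marker Mki67 with 38 and 40 peaks and 22 shared, and Cdk6 with 37 and 31 peaks and 14 shared, of which 4 were single-copy. Of 18 p53 pathway genes 10 were bound (55.6%, 30.8% to 78.5%), with 9 shared peaks each in Cdkn1a, the gene of the inhibitor p21 (21 and 18 peaks), and Phlda3, an Akt repressor (10 and 15), and 8 in Btg2 (13 and 11).

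Of 16 myogenic transcription factor genes 8 were bound (50%, 24.7% to 75.3%), against 21.3% of all coding genes, among them the homeobox gene Six4 with 17 and 22 peaks and 12 shared. Tcf4 had 21 and 22 peaks and 11 shared. Of 30 sarcomere genes of differentiated muscle 2 were bound (6.67%, 0.818% to 22.1%), Ttn with 8 and 5 peaks and 1 shared and Tnnt1 with 1 shared peak that was not single-copy. Ttn has 116828 nt of exon.

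Myoblast markers were mostly bound and few markers of other cell types were. Of 11 myoblast markers 8 had a shared peak (72.7%, 39.0% to 94.0%), against 21.3% of all coding genes, among them Des, the desmin gene, with 18 and 17 peaks and 10 shared, and the muscle cadherin gene Cdh15 with 6 and 9 peaks and 3 shared. Myf5 had 2 peaks in each library, both shared. Myod1 had 5 and 3 peaks and none shared, Pax7 had 0 and 1, and Myog had none. Of the markers of other cell types, none of 8 for blood and immune cells, 5 for adipocytes and 5 for epithelium had a shared peak, and lists this short allow shares of up to 36.9% for blood and immune cells and 52.2% for the others. Of 6 for endothelium only Pecam1 had 1, which lay in an intron and was not single-copy, and of 6 for neurons only Tubb3, with 5 peaks in each library and 4 shared. Of 50 keratin genes none was bound, of 1087 olfactory receptor genes 1 (Olfr44), and of 320 vomeronasal receptor genes 1 (Vmn2r54).

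Histone and ribosomal protein genes had the highest bound shares of all lists, and much of this rested on sequence found more than once in the genome. Of 67 replication-dependent histone genes 60 were bound, with 3.27 exonic shared peaks per kb of exon over the list, but 18 of their 184 shared peaks were single-copy; with single-copy peaks alone 19.4% of the list was bound, against 16.5% of all coding genes. Hist2h3c1, a gene of histone H3, had 14 and 11 peaks and 7 shared, none of them single-copy. Of 76 cytosolic ribosomal protein genes 63 were bound, or 31.6% with single-copy peaks alone; Rplp0 had 13 and 11 peaks and 12 shared, 3 of them single-copy, and Rpl8 and Rpsa had 8 shared each, of which 1 was single-copy in Rpsa.

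Of 67 translation factor genes 27 were bound (40.3%, 28.5% to 53%), against 21.3% of all coding genes, with 27 shared peaks in the elongation factor gene Eef2 (34 and 36 peaks), 23 in Eef1a1 (26 and 23), of which 5 were single-copy, and 14 in Eif4g1 (25 and 21). Of 28 heat shock chaperone genes 12 were bound (42.9%, 24.5% to 62.8%), led by Hsp90ab1 (22 and 21 peaks) and Hspa8 (18 and 22) with 14 shared each and Hsp90b1 with 8. In Hspa8, 4 of the 14 were single-copy. Of 18 tRNA synthetase genes 8 were bound (44.4%, 21.5% to 69.2%), with 4 shared peaks in Vars, 3 in Aars and 2 in Lars.

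Several other lists lay nearer to the share of all coding genes. Of 368 Zfp genes, most of them zinc finger proteins, 93 were bound (25.3%), with 15 shared peaks each in Zfp36l2 and Zfp740 and 13 in Zfp516. Of 355 solute carrier genes 72 were bound (20.3%), with 38 in Slc25a37, the mitochondrial iron importer (64 and 75 peaks), 27 in the inositol transporter gene Slc5a3 (45 and 49) and 25 in the amino acid transporter gene Slc38a2 (37 and 44). Of 79 nuclear genes of the respiratory chain 17 were bound (21.5%), with 9 shared peaks in Atp5b. Of 41 proteasome genes 8 were bound (19.5%), with 5 in Psmd7. Of 46 kinesin and dynein genes 13 were bound (28.3%), with 20 in Dync1h1 and 11 in Kif1c. The clustered protocadherin genes did not, with 13 of 24 bound (54.2%) and 28 shared peaks in Pcdhgc5; the annotation gives that gene 28980 nt of exon. Of the 64 shared peaks of this list 35 were single-copy, and with single-copy peaks alone 29.2% of it was bound, against 16.5% of all coding genes.

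The libraries held many of the same genes. Protein-coding genes with any peak numbered 7317 in replicate 1 and 8161 in replicate 2, and 6224 had a peak in both; 1459 of these had no shared peak. A peak in replicate 1 alone was found in 1093 genes and in replicate 2 alone in 1937. Across the 9254 genes with a peak in either library, the numbers of peaks per gene had a Pearson correlation of 0.976 and a Spearman correlation of 0.722, and on the log2(peaks + 1) scale a Pearson correlation of 0.811. These are descriptions across genes, which are not replicates and have the same exon length in both libraries.

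Single peaks were shared more often in genes with many peaks. Of the peaks of replicate 1, 34.2% were shared in genes with 1 peak, 41.2% in those with 5 to 9 and 51.6% in the 423 genes with 20 or more. Of the genes with 1 peak in replicate 1, 66.0% had any peak in replicate 2. Genes with many peaks also held more peaks of replicate 2 that could overlap, and its part in these shares was not tested.

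**Figure D5:**
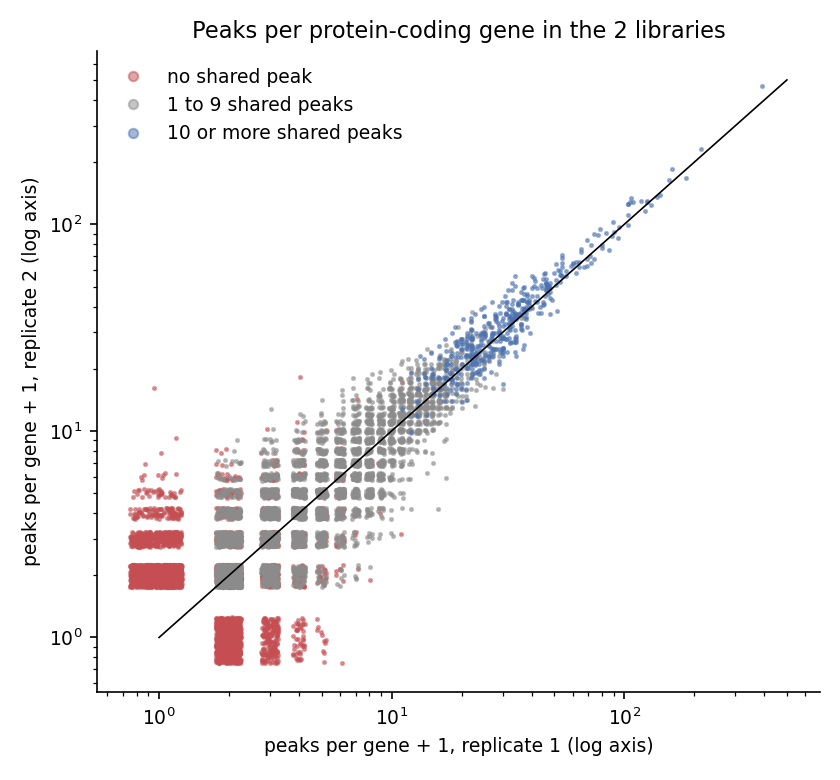
Peaks per protein-coding gene, plus 1, in replicate 1 (horizontal, log axis) and replicate 2 (vertical, log axis) for the 9254 genes with a peak in either library, with points spread by up to 0.25 so that equal values do not hide each other. Red points have no shared peak, grey ones 1 to 9 and blue ones 10 or more, and the line marks equal numbers; points with many peaks lie close to it.

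Of 1100 coding genes with 20 or more peaks in the libraries together, 1082 (98.4%) differed by no more than 2-fold between them, and the log2 ratio of replicate 2 over replicate 1 had a median of 0.09 and an SD of 0.36 across genes. The widest ratio was in Cbfb, the partner subunit of Runx proteins, with 3 and 17 peaks and none shared. Nfib had 5 and 15 peaks and 3 shared, and Palld 6 and 17 and 4 shared. In the other direction, Slc38a6 had 16 and 5 peaks and 1 shared, and Tcf3, an E protein that pairs with MyoD, 14 and 6 and 3 shared. Of the genes beyond 2-fold, 16 had more peaks in replicate 2 and 2 in replicate 1.

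Chromosome 15 had the highest share of bound coding genes after the mitochondrial genome, a comparison chosen after the values were seen. Of its 797 protein-coding genes 244 were bound (30.6%), with 6.88 shared peaks per bound gene, or 6.0 without Ext1, against 3.83 on the other chromosomes without M. It held 3.56% of the coding genes and 11.4% of the intronic shared peaks, or 8.32% without Ext1. Ext1, Plec, Myh9, Mll2, Pvt1 and Gm20398 all lie on it.

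Activated muscle stem cells shared part of these genes. With the same assignment, 2443 peaks found in all 4 ASC-48h libraries fell in 519 of all 22380 protein-coding genes. Of these 519 genes, 388 had a C2C12 shared peak. That is 74.8% of the ASC-48h genes, against 21.3% of all protein-coding genes with a C2C12 shared peak. It is 8.14% of the 4765 bound C2C12 genes, from lists that differ in the reads behind them. Of the 452 genes with 10 or more C2C12 shared peaks, 44 had an ASC-48h shared peak, beside 388 of all 4765 bound C2C12 genes.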

How the data were processed

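UV-crosslinked C2C12 cells, grouped by the labels, gave 2 LACE-seq libraries of YTHDC1. The authors trimmed reads with cutadapt 1.15, removed pre-rRNA matches, and placed the rest on mm9 with Bowtie 1.2.3 at several allowed positions. They called peaks per library with Piranha in bins of 20 nt; the settings are stated for ASC. The deposited signal is reads per bin without normalization, averaged where a peak spans several bins. Piranha's p-value, as deposited, is unadjusted and at most 0.000641 and 0.000714 in replicates 1 and 2. The total depth of each library is unknown, so a peak near 6 reads has little precision. Whether duplicate reads were removed is not given in the sources used here.

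Peaks of replicate 1 that overlapped replicate 2 by 1 nt or more on the same strand were assigned to GENCODE vM1 genes (NCBIM37) on the opposite strand, since reads are cDNA. A peak went to the genes whose exons it overlapped, and otherwise to every gene whose introns it overlapped; 400 counted for more than 1 gene. ASC-48h shared peaks overlapped in the technical replicates of B1 and of B2, and between B1 and B2. On sequences without a reference, 177 shared peaks had no gene or copy number. Exon length is that of the union of exons. Python 3.11.15, pandas 2.3.3, numpy 2.4.6, scipy 1.17.1, pysam 0.24.0, samtools 1.23.1 and matplotlib 3.10.9 were used, and the overlaps and the assignment were tested on simulated lists of 2000 peaks, where 3 of 3 checks gave the known answer. No test was run, since 1 line with 2 libraries has no contrast.

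Named genes were the 12 coding genes with most shared peaks, 8 with most per kb (5 or more exonic), 8 with most intronic, 8 long noncoding, 8 small RNA genes by peaks and 8 by reads, 6 with the widest library ratio in each direction (0.5 added, 20 or more peaks), 3 per list, and markers. The members, the rule and the 42 gene lists were chosen with earlier results of these data known; 5 listed symbols had no match. Alternatives covered overlap, p, reads, G runs of 10 or more, copies, strand, chromosomes and replicates. Some genes that the rule on named genes picked are not reported here.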

Additional observations from a re-analysis of the deposited data

How the results depend on the processing

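Peaks near the lower limit of reads carried most counts. With p at most 1e-04 in both libraries there were 10114 shared peaks in 3311 genes, 2466 of them protein-coding and 86 with 10 or more. With p at most 1e-05 there were 4420 in 1849 genes, 1316 coding and 15 with 10 or more, and with 10 or more reads per bin in both libraries 5050 in 1981 genes, 1369 coding and 23 with 10 or more. These settings keep fewer peaks by construction. Single-copy peaks numbered 17549, or 17291 also away from G runs (the latter a setting chosen after seeing the data), and 91.29% or 92.09% of them were in a gene; with genes on either strand it was 79.74%. All peaks of a single library, without replicate 1 or without replicate 2, numbered 60540 to 71992, with 70.2% to 75.96% in a gene, 9153 to 10127 genes, 7317 to 8161 coding genes and 1091 to 1205 coding genes with 10 or more. Of 67 values of the 5 main results, 42 stayed within 1.5 times the main count or within the spread of the libraries. Of the 42 lists, 26 stayed above the share of all protein-coding genes under all 14 alternatives, 8 stayed at or below it, and 8 changed side: integrins, kinesins and dyneins, neuron markers, proteasome subunits, respiratory chain proteins, snoRNA host genes, solute carriers and tRNA synthetases. The cause of these changes was not tested. Peaks are made of 20-nt bins, so the alternative of 20 nt or more in common left every list share as it was. No paired analysis was possible because no test compares groups. With 2 libraries of unknown depth and no control library, binding cannot be separated from the amount of an RNA.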
